A study of Homo sapiens with 22 samples.

Results

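The genes described here are 40 genes of mitosis and the G2/M phase, taken as a list of symbols and not by their values. Of these, 39 had a row in the table of 36859 genes, 37 passed the filter on low values and were tested, and KIF11 was not analysed here. SPC25 and KIF4A had a row but stayed below the filter. The members comprise cyclins, CDK1 and their regulators (9 with a row), kinetochore and checkpoint genes (10), the chromosomal passenger complex (3), mitotic kinesins (5), anaphase genes (3), spindle and cytokinesis genes (7), and TOP2A with MKI67 (2).

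RPTEC are human renal proximal tubule epithelial cells immortalized with hTERT, and RNA-seq of 22 libraries in 11 groups of 2 replicates was analysed. Kept in 2% serum were untreated WT cells, WT cells that received TGF-β (10 ng/mL, 72 h), 2 clones without functional SETD2 by design (KO1 and KO2), and cells labelled KO2_Rescue. In regular medium with 10% serum they were Rescue1, Rescue2, and WT cells transduced with a lentivirus for eGFP, SOX2, OCT2 or PRRX1. SETD2 is the methyltransferase for H3K36me3, KO1 and KO2 are each 1 clone made with Cas9 and a guide to SETD2, Rescue1 and Rescue2 are clones picked after lentiviral re-expression of full-length SETD2, and the transduced WT lines were selected in bulk. All cells carried hTERT. The labels give 0 h for WT, KO1, KO2 and KO2_Rescue, and they do not say whether these cells spent as long in low serum as the TGF-β-treated cells. Serum differed between the rescue clones and both WT and the KO clones, so serum and SETD2 re-expression cannot be told apart there. The labels do not say that replicates were separate cultures, so p-values measure only the spread between these samples.

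As background, entry into mitosis is driven by CDK1 bound to cyclin B, whose genes, with those of the spindle, kinetochores and cytokinesis, are transcribed mainly in late S, G2 and M phase and are shut off in resting cells. Their promoters commonly hold CCAAT boxes, bound by NF-Y, and the CHR element, whose core is TTTGAA, through which the DREAM complex represses them in quiescence and the B-MYB-MuvB complex with FOXM1 activates them in dividing cells. At the end of mitosis the anaphase-promoting complex (APC/C) with CDC20, fed by the E2 enzyme UBE2C, degrades cyclin B and securin (PTTG1). In a bulk sample, fewer cycling cells and less RNA per cell cannot be told apart.

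Promoters of 5 members are shown because their levels carry the results that follow: CCNB1, MKI67 and KIF23 followed the pattern of most members, PLK1 followed it after TGF-β and in the KO clones and was near its WT level or above it in transduced WT cells, and CENPE was the member that was not lower after TGF-β. Each run is the 250 bases before the RefSeq start site in GRCh38.p14, 5′ to 3′ on the strand of the gene, and capitals mark CCAAT or its reverse complement ATTGG, and TTTGAA or its reverse complement TTCAAA. The regions are chr5:69166900-69167149 on the plus strand for CCNB1, chr10:128126424-128126673 on the minus strand for MKI67, chr15:69414099-69414348 on the plus strand for KIF23, chr16:23678639-23678888 on the plus strand for PLK1, and chr4:103198344-103198593 on the minus strand for CENPE.
CCNB1: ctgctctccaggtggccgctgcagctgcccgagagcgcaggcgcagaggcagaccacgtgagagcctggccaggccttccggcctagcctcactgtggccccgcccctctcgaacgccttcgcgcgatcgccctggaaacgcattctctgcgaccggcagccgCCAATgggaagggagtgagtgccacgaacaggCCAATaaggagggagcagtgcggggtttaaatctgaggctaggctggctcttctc
MKI67: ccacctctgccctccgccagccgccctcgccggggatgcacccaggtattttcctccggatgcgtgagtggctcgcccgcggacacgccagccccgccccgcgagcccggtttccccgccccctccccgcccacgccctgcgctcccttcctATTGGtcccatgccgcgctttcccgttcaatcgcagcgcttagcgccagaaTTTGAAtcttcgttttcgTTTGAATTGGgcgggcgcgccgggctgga
KIF23: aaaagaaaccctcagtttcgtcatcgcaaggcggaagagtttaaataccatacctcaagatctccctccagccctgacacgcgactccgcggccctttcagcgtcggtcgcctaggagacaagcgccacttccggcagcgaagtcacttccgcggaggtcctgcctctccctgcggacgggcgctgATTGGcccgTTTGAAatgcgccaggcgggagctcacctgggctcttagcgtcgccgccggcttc
PLK1: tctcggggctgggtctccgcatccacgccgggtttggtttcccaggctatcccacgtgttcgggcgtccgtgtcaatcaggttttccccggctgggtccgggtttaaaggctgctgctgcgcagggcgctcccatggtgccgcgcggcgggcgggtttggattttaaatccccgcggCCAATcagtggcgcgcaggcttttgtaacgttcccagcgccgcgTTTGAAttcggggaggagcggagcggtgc
CENPE: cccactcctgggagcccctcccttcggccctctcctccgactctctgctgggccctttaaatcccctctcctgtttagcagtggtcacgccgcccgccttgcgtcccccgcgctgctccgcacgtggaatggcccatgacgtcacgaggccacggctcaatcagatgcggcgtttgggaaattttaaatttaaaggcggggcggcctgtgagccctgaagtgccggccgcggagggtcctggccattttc

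A CCAAT match was found in 25 of the 33 members with a RefSeq promoter (75.8%), against 33.0% of all 27305 promoters of the same length. TTTGAA was found in 19 of the 33 (57.6%), against 13.6% of all promoters. Both motifs were found in 16 (48.5%), against 4.85%, and at least 2 CCAAT matches in 17 (51.5%), against 10.0%. Both motifs were searched on both strands, and in MKI67 the last TTTGAA and ATTGG overlap. In CCNB1 the 2 CCAAT matches began 87 and 55 bases before the start site, and in KIF23 ATTGG began 64 and TTTGAA 55 bases before it. CENPE, NUF2, KIF2C, NDC80 and CDC25C had neither motif in this window. A match is a run of letters and not a measured binding site. AURKA, BIRC5, FOXM1, UBE2C, TPX2 and TTK had no entry.

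The values used here are normalized counts, obtained by converting the deposited log2 values back. They added up to between 11674491 and 16758645 per library. A log2 change is the difference of mean log2(normalized count + 1) between groups, with its standard error (SE). Calls required a Benjamini-Hochberg adjusted p below 0.05 in limma's moderated test, taken over 14585 genes, together with a log2 change of more than 1 in size. Among genes that every cell uses, chosen after their values were seen, ACTB, GAPDH and HSP90AB1 were at 0 in no library (lowest 59291, 247 and 34.4). However, POLR2A, which encodes the large subunit of RNA polymerase II, ranged from 0 to 117 normalized counts and HPRT1 was listed at 0 in 6 of the 22 libraries. A value of 0 is therefore given only as listed, and no fold is given as a measured size or bound against a group listed at 0, where a fitted log2 change depends on the pseudocount of 1.

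SETD2 itself had 1852 and 2061 normalized counts in WT, 1046 and 1130 in KO1, and 1049.8 and 1052 in KO2. Its log2 change against WT was -0.84 (SE 0.07) in KO1 and -0.89 in KO2, and Rescue1 and Rescue2 had between 9764 and 10445. The libraries labelled KO2_Rescue had 834 and 819.6, below both KO2 libraries, so their label goes against the level of the targeted gene. The KO alleles are frameshifts, which total RNA of SETD2 does not report on. Epithelial markers PAX8 (1535 to 6561 normalized counts) and GGT1 (225 to 1091) were present in all 22 libraries, whereas HNF4A and SLC22A6, which define mature proximal tubule, were at 0 in all of them, LRP2 stayed at or under 2.29, and the leukocyte gene CD3E was at 0 in all. The summed level of the 15 epithelial markers was 20215 to 22539 in WT, 21390 to 21601 after TGF-β, 13395 to 13812 in KO1 and 17604 to 18532 in KO2. That of the 4 endothelial markers was higher in the KO clones (125.6 to 154.5) than in WT (4.99 to 40.3), with KDR at 103 to 145, while PECAM1 was at or under 3 in 21 of the 22 libraries. That of the 4 leukocyte markers was 210.2 to 369.7 in KO1 and 153 to 197 in KO2. It was 107 to 149.7 in WT and 45.0 to 54.2 after TGF-β. CD68 made up most of this sum in KO1, KO2 and WT, with means of 287, 167 and 126. It was called in neither KO clone against WT. PTPRC and CD79A were at or under 3 in 18 and 19 of the 22 libraries. Of the 15 epithelial markers, KRT8 and PAX8 had the highest medians over the libraries, at 11084 and 5076. The part of these marker levels in the changes of the mitotic genes was not tested.

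Across the 22 libraries, the mitotic genes differed in level by group. The median of the 37 members, relative to the mean of WT, was -2.18 and -1.76 in the libraries of TGF-β-treated cells, -3.53 and -3.36 in KO1, -2.47 and -2.47 in KO2, and -1.71 and -1.90 in KO2_Rescue, all on the log2 scale. It was -0.32 and -0.33 in Rescue1, -0.31 and -0.33 in Rescue2, and -1.49 and -1.31 in WT with eGFP. In the other transduced lines it lay between -1.16 and -1.41. The KO1 libraries were lowest and the rescue clones were nearest to WT. The group mean of normalized counts, here not on the log2 scale, was highest in WT for 27 of the 37 members, and lowest in KO1 for 26. The same count over all genes was not made. The order WT over TGF-β over KO2 over KO1 was found in 25 of the 37, against 9.59% of all genes tested. It is the order of the medians of these same members, so the count describes how widely they share it and is no separate test.

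**Figure D1:**
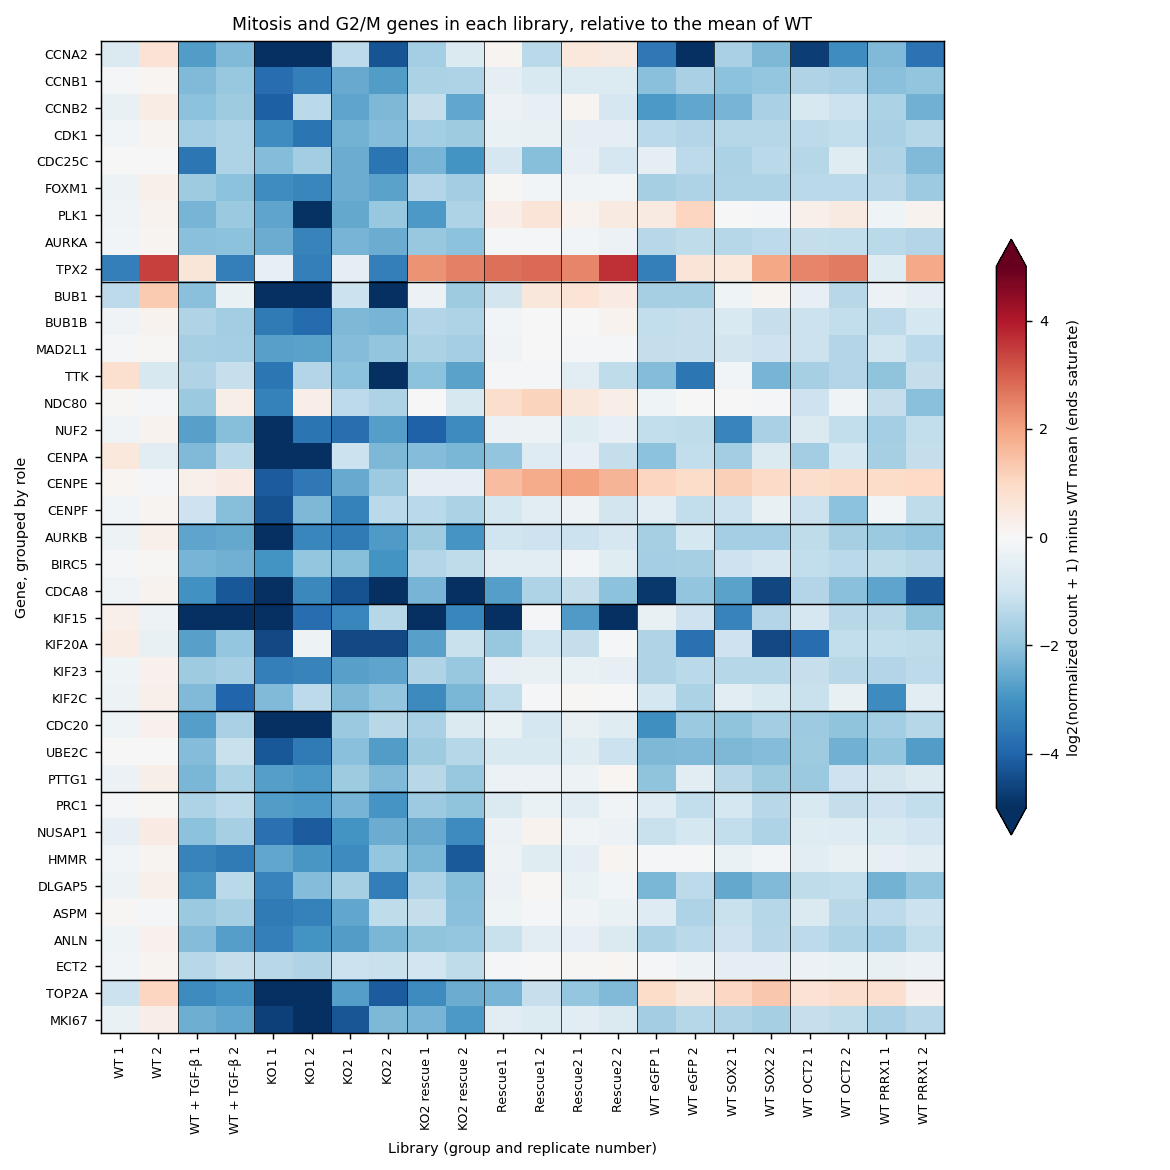
Each cell is 1 of the 37 members tested (rows, grouped by role) in 1 of the 22 libraries (columns), coloured by log2(normalized count + 1) minus the mean of the 2 WT libraries. Blue cells fill the columns of TGF-β, KO1 and KO2, the columns of Rescue1 and Rescue2 are near white for most genes, and CENPE, PLK1, TPX2 and TOP2A differ from the other rows in the transduced lines.

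Among the engines of mitotic entry, CCNB1 (cyclin B1) had 2712 and 3033 normalized counts in WT, 623 and 763 after TGF-β, 204 and 265 for KO1, and 495 and 415 for KO2. CDK1, its kinase, had 1748 and 2153 in WT, 598 and 660.0 after TGF-β, 226 and 153 for KO1, and 377 and 436 for KO2. For both genes the 4 groups did not overlap, with WT highest and KO1 lowest. The log2 change of CCNB1 against WT was -2.05 (SE 0.17) after TGF-β, -3.62 in KO1 and -2.66 in KO2. That of CDK1 was -1.63 (SE 0.15), -3.38 and -2.25, and all 6 changes were called. In the rescue clones CCNB1 had 1695 to 2045 and CDK1 1380.3 to 1534, above every KO2 library and below every WT library.

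FOXM1, the transcription factor of G2/M genes, had 1841 and 2657 in WT, 640.0 and 529.9 after TGF-β, 258 and 232 for KO1, 398 and 344 for KO2, and 1957 to 2292 in the rescue clones. AURKA, a centrosome kinase, had 1737 and 2089 in WT, 443 and 455 after TGF-β, 339 and 185 for KO1, 377 and 343 for KO2, and 1575 to 1775 in the rescue clones. The ranges of the rescue clones and WT overlapped for both genes, and those of WT and the other 3 groups did not. Both genes were called lower in each of the 3 groups, with log2 changes of -1.92 (SE 0.17), -3.17 and -2.58 for FOXM1 and of -2.08 (SE 0.19), -2.92 and -2.40 for AURKA.

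PLK1, a kinase needed at most steps of mitosis, had 87.6 and 115 in WT, 19.1 and 27.0 after TGF-β, 15.4 and 2.28 for KO1, 16.1 and 26.6 for KO2, 113 to 159 in the rescue clones, and 136 and 212 in WT with eGFP. It was called lower after TGF-β (-2.10, SE 0.61), in KO1 (-3.79) and in KO2 (-2.22), and its level in the eGFP line was above both WT libraries without passing the test (log2 change 0.75, adjusted p = 0.41 in limma). CCNA2 (cyclin A2) had 480.3 and 1278 in WT, 112 and 168 after TGF-β, 315 and 38.4 in KO2, and was listed at 0 in both KO1 libraries. It was called lower in KO1 and in WT with eGFP (64.0 and 0), and not after TGF-β (-2.50, SE 1.41) nor in KO2 (-2.81). TPX2, which activates AURKA on the spindle, had 0 and 114 in WT, and with an SE of 1.98 it was called in no comparison.

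MKI67, which encodes the Ki-67 protein used as a marker of cycling cells, had 4088 and 6581 in WT, 959 and 859 after TGF-β, 202 and 67.2 for KO1, 264 and 1105 for KO2, and 3175 to 3541 in the rescue clones. The 2 KO2 libraries lay on either side of the TGF-β libraries, whereas KO1 was below all other groups. MKI67 was called lower after TGF-β (-2.51, SE 0.52), in KO1 (-5.46) and in KO2 (-3.26), and was higher by 2.64 and 2.62 in Rescue1 and Rescue2 than in KO2. TOP2A, the topoisomerase that untangles sister chromatids, had 22.3 and 99.5 in WT, 4.45 and 5.32 after TGF-β, 6.13 and 1.67 in KO2, and was listed at 0 in both KO1 libraries.

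**Figure D2:**
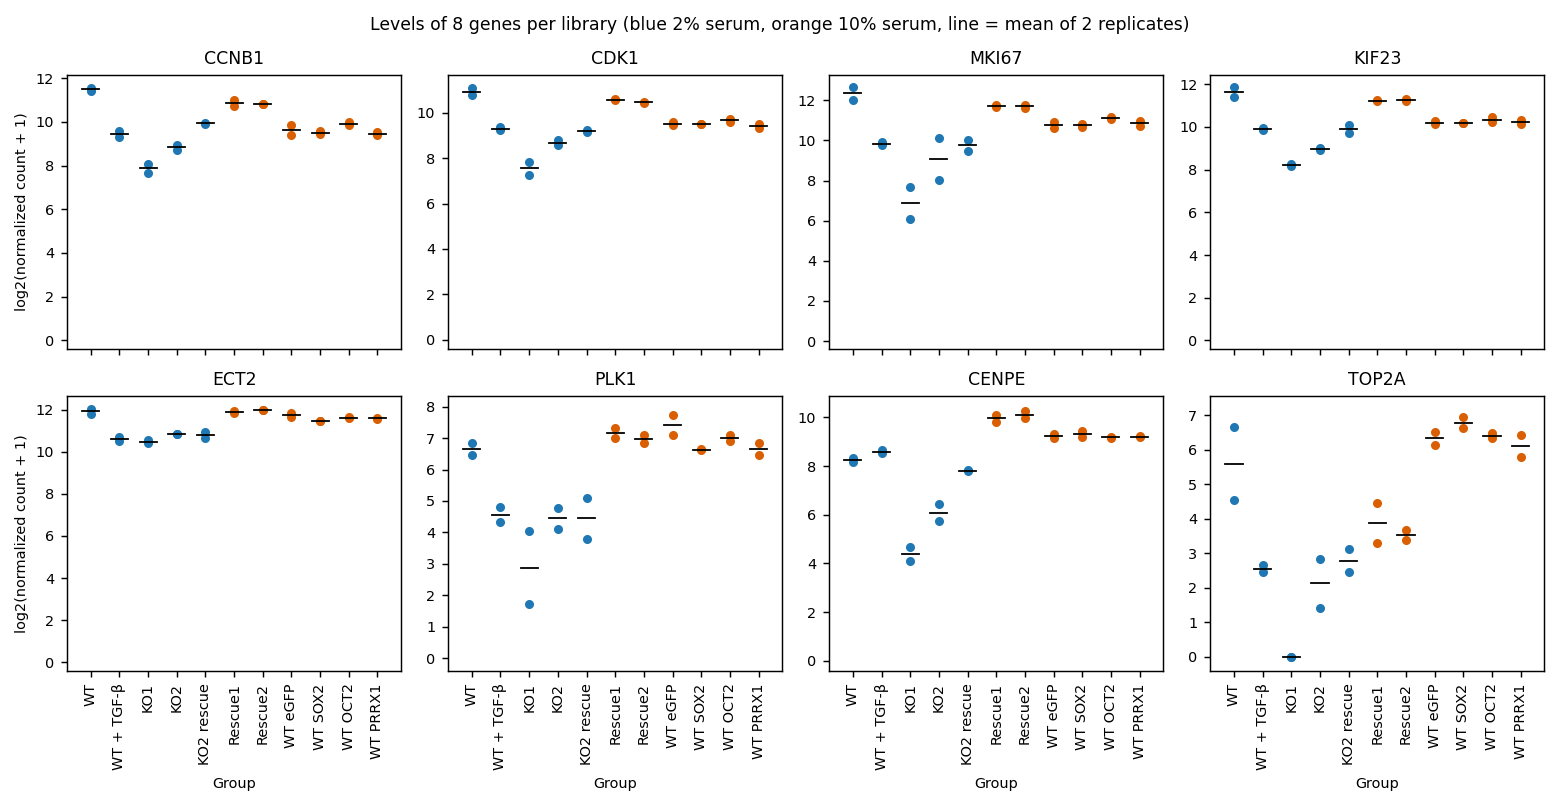
Each panel gives log2(normalized count + 1) of 1 gene in the 22 libraries (points, blue for 2% serum and orange for 10% serum) with the mean of the 2 replicates of each group (line). CCNB1, CDK1, MKI67 and KIF23 share a pattern, with KO1 lowest and the rescue clones near WT, whereas ECT2 spans a smaller range, CENPE is not lower after TGF-β, and in transduced WT cells the group means of PLK1 are near or above WT and those of TOP2A above it.

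TGF-β-treated WT cells had lower levels of most mitotic genes than untreated WT cells. Of the 37 members tested, 25 were called lower and 0 higher, where 4.26% of all genes were called lower and 3.58% higher. The median log2 change was -1.92, and 0.00 over all genes tested. Both treated libraries were below both WT libraries in 33 members, where 26.6% of all genes were. At an unadjusted p under 0.05, 30 members were lower by more than 1 and 0 were higher. This threshold is looser than that of the shares above, and no share of all genes is given for it.

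By role, all 7 spindle and cytokinesis genes, all 3 anaphase genes and both TOP2A and MKI67 were called lower after TGF-β. Among these, HMMR, a spindle-associated hyaluronan receptor, went from 285 and 349.8 to 30.6 and 26.2 (-3.44, SE 0.48), and CDC20 from 227 and 304 to 38.3 and 84.7 (-2.18). ECT2, the exchange factor that activates RhoA at the cleavage furrow, had the smallest change of the 25 called, from 3540.4 and 4224 to 1479 and 1670.0 (-1.30, SE 0.10). HMMR and ECT2 thus moved in the same direction by unequal amounts, and in both the groups did not overlap.

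Kinetochore and checkpoint genes were called less completely after TGF-β, with 2 of 9 called. BUB1B, the checkpoint kinase BUBR1, had 1778 and 2243 in WT and 699 and 601 after TGF-β (-1.62, SE 0.16), and MAD2L1, the checkpoint protein that binds CDC20, had 511 and 559 against 168 and 164 (-1.68, SE 0.17). CENPE, a kinetochore motor, had 325 and 288 in WT and 366 and 408 after TGF-β (0.34, adjusted p = 0.39 in limma), and it was the 1 member whose treated libraries were both higher. The remaining members of this group (BUB1, TTK, NDC80, NUF2, CENPA and CENPF) had log2 changes of -0.78 to -2.42 with SEs of 0.64 to 1.12 and did not pass. BUB1, a checkpoint kinase, had 71.4 and 437 in WT and 40.4 and 142 after TGF-β, which overlapped, whereas NUF2 had 243 and 309 in WT and 41.0 and 61.8 after TGF-β.

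Of the chromosomal passenger complex, which corrects chromosome attachment, AURKB (365 and 519.5 in WT, 69.7 and 73.9 after TGF-β) and BIRC5 (361 and 399, against 74.4 and 71.9) were called lower, and CDCA8 had a log2 change of -3.64 with an SE of 1.51. Of the kinesins, KIF23, a motor of the central spindle, had 2680.0 and 3677 in WT and 919.7 and 989 after TGF-β (-1.72, SE 0.14). KIF2C, which depolymerizes microtubules at kinetochores, had 54.2 and 75.4 in WT and 13.2 and 3.11 after TGF-β (-3.09, SE 0.78). KIF15, a motor that helps to keep the spindle bipolar, was called lower and was listed at 0 in both treated libraries, with 113 and 79.8 in WT.

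KO1 had lower mean levels than WT, on the log2 scale, in every member tested. Both KO1 libraries were below both WT libraries in 34 members, where 30.7% of all genes were. Of the 37, 32 were called lower and 0 higher, where 13.1% of all genes were called lower and 12% higher, with a median log2 change of -3.38. CDC25C, KIF15, CCNB2 and CDCA8 lost the call when some single libraries were left out. CCNA2, CDC20, BUB1, CENPA and TOP2A were listed at 0 in both KO1 libraries, against 227 and 304 normalized counts of CDC20, the APC/C activator, in WT. The median was the same with those 5 genes set to a floor of 3 normalized counts.

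KIF23, the member most like the median of the others across groups, had 289.6 and 305 in KO1, which was 10.5-fold lower than in WT. BUB1B had 172 and 137 (-3.69, SE 0.16), and NUSAP1, which bundles spindle microtubules, had 106 and 79.0 (-3.94, SE 0.28). UBE2C had 15.9 and 26.6, against 314 and 326 in WT (-3.90, SE 0.40). For each of these 4 genes both KO1 libraries were below every library of WT, TGF-β-treated cells and KO2. ECT2 again changed least among the members called, with 1488 and 1357 in KO1 (-1.44).

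Errors differed between members, and the SE of a gene rests on its spread over all 22 libraries and not on KO1 alone. NUF2, a subunit of the NDC80 complex that grips microtubules, had 243 and 309 in WT and 0 and 20.98 in KO1 (-5.88, SE 0.97), and CDCA8, the Borealin subunit of the passenger complex, had 560.6 and 715 against 0 and 67.7 (-6.26, SE 1.51). In both genes 1 of the KO1 libraries was listed at 0, and all 4 values lay below WT. PTTG1 had 81.6 and 124 in WT and 13.9 and 12.8 in KO1 (-2.82, SE 0.49), ASPM 189.5 and 179 against 15.1 and 16.7 (-3.46, SE 0.43), and CENPF, a kinetochore protein of G2 cells, 132 and 160.4 against 6.08 and 29.9 (-3.31). The 5 members not called in KO1 were TPX2, NDC80, TTK, KIF20A and KIF2C, of which NDC80 had 9.75 and 8.90 in WT and 0 and 12.1 in KO1.

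KO2 had lower mean levels than WT, on the log2 scale, in all 37 members as well. Of these, 31 were called lower and 0 higher, where 7.29% of all genes were called lower and 9.02% higher. The median log2 change was -2.53. PRC1, which crosslinks the central spindle, had 1542 and 1634 in WT and 313 and 204 in KO2 (-2.65, SE 0.25), and ANLN, a scaffold of the contractile ring, had 1879 and 2541 against 314 and 451 (-2.54). CDC25C, the phosphatase that activates CDK1, had 108 and 111 against 18.7 and 7.80 (-3.07, SE 0.66), DLGAP5, a spindle assembly factor, 260.1 and 374 against 96.9 and 27.4 (-2.57, SE 0.59), and CCNB2 (cyclin B2) 91.8 and 157 against 18.3 and 24.7 (-2.45). In these 5 genes no KO2 library reached a WT level. KIF20A, a cytokinesis motor with 28.8 and 16.82 in WT, was listed at 0 in both KO2 libraries. With single libraries left out, 21 to 26 members were called in KO2, and TTK, the checkpoint kinase MPS1 (119 and 38.8 in WT, 15.7 and 0 in KO2), was among those lost without KO2 replicate 2. Of the 23 members with a mean of at least 100 normalized counts, 22 were called. Both KO2 libraries were below both WT libraries in 35 members, where 30.1% of all genes were.

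The comparisons of TGF-β, KO1 and KO2 with WT share the same 2 WT libraries. The groups were therefore also set against each other. CENPE had 16.1 and 24.8 in KO1 and 52.0 and 85.6 in KO2, against 366 and 408 after TGF-β. The difference of KO2 from TGF-β was itself called for CENPE (-2.52, SE 0.23) and for PRC1 (-1.21), and for no other member, where 7.58% of all genes were called lower and 9.37% higher. Without TGF-β replicate 1, 5 members were called, and 4 were called without either KO2 library. KO1 was below the TGF-β group in 20 members called, where 12% of all genes were called lower, and 13 were called with a spread from these 4 libraries alone.

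**Figure D3:**
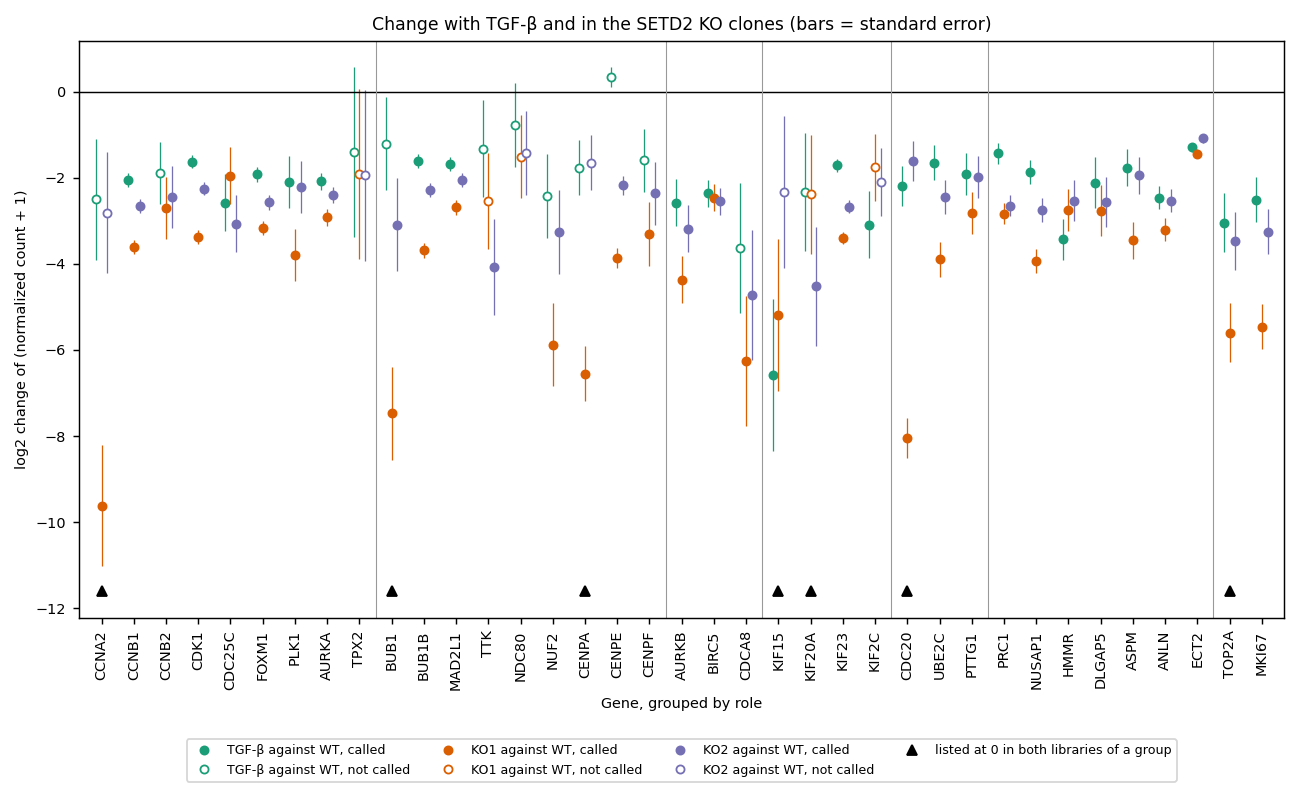
Points give the log2 change of each of the 37 members against WT (vertical axis) after TGF-β, in KO1 and in KO2, with bars for the standard error, filled where called and open where not, and black triangles under genes listed at 0 in both libraries of a group, whose fitted value depends on the pseudocount of 1. All points but that of CENPE after TGF-β lie below 0, and KO1 is the lowest for most genes.

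Between the clones, KO1 was lower than KO2 in 12 members called, where 4.49% of all genes were called lower, and 0 were called higher, where 2.48% were. Besides genes listed at 0 in KO1, they included BUB1B (-1.41, SE 0.16), CDK1 (-1.12), CENPE (-1.69), NUSAP1 (-1.20), UBE2C (-1.44), ASPM, a spindle pole protein (-1.52), and MKI67 (-2.20). With a spread estimated from the 4 libraries of the clones alone, 1 member (CDC20) was called. AURKA (-0.52), PRC1 (-0.19), BIRC5 (0.08) and HMMR (-0.22) had differences that did not pass. The replicates of KO2 differed more in the mitotic genes than in other genes. Their median absolute log2 difference was 0.61 over the 23 members with a mean of at least 100 normalized counts and 0.16 over all such genes. This was not particular to KO2, as the values were 0.41 and 0.27 in KO1, 0.33 and 0.14 in KO2_Rescue, and 0.35 and 0.24 in WT. Only in WT with eGFP did the members differ less (0.16 and 0.18). Members and all genes were not matched for level.

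Rescue1 and Rescue2 had higher levels than KO2, with 24 and 27 of the 37 members called higher and 0 lower, where 6.88% and 6.86% of all genes were called higher and 9.24% and 8.41% lower. The median log2 changes were 2.12 and 2.23, and both clones share the KO2 libraries. CENPE, at 897 and 1104 in Rescue1 and 1239 and 995 in Rescue2, was higher by 3.88 (SE 0.23) and 4.04 than in KO2. KIF23, at 2362 and 2427 in Rescue1 and 2524 and 2368 in Rescue2, was higher by 2.28 (SE 0.14) and 2.31. BUB1B, at 1826 and 1944 and at 2001 and 2249, was higher by 2.20 and 2.37. In all 3 genes no library of a rescue clone overlapped a KO2 library.

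Members not called in either rescue clone against KO2 included CCNA2, CDCA8, TPX2 and NDC80. CENPA, the centromeric histone, had 22.8 to 69.7 in the rescue clones against 44.1 and 18.7 in KO2, which overlapped. CDC20 had 144 to 211, above the 71.7 and 101 of KO2, with log2 changes of 1.03 and 1.14 and adjusted p = 0.11 and 0.081 in limma. KIF15 was the 1 member with negative changes in both clones, with 0 and 92.2 in Rescue1 and 12.6 and 0 in Rescue2, and it did not pass.

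Against WT, in other serum, CENPE was the 1 member called in Rescue1 (1.70, SE 0.23, higher), where 5.49% of all genes were called higher and 5.6% lower. In Rescue2 CENPE was called higher (1.86) and TOP2A lower (-2.06, SE 0.68), where 5.27% and 5.09% of all genes were called higher and lower. The call of TOP2A (adjusted p = 0.044 in limma) was lost in the fit with no filter, with the libraries compared alone, with a pseudocount of 0.5, with the replicate block and with the same total (adjusted p = 0.053 to 0.19), and without either Rescue2 library or WT replicate 2 (adjusted p = 0.12 to 0.41). The median log2 change against WT was -0.39 in Rescue1 and -0.36 in Rescue2, with 33 and 28 of the 37 members below 0. CCNB1 was lower by less than the limit of 1 in both clones, at -0.62 (adjusted p = 0.014 in limma) and -0.69 (adjusted p = 0.0079). ECT2 differed from WT by -0.04 (SE 0.10) and 0.08. The counts rest on few libraries, since in Rescue1 1 member was higher and 2 were lower without its replicate 2 or without WT replicate 1, and 2 were higher without WT replicate 2.

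The libraries labelled KO2_Rescue, grown in 2% serum like KO2, had 3 of 37 members called higher than KO2, where 1.65% of all genes were called higher, and 0 called lower, where 2.52% were. These were CCNB1, at 961 and 990.5 against 495 and 415 (1.10, SE 0.17), CENPE, at 219 and 226 against 52.0 and 85.6 (1.72), and BIRC5, an inhibitor of apoptosis in the passenger complex, at 135 and 156 against 86.6 and 47.5 (1.17, SE 0.31). FOXM1 (0.98), KIF23 (0.97), BUB1B (0.77) and CDK1 (0.51) passed the p threshold with changes under the limit of 1. Without KO2 replicate 1, 6 members were called higher. The group mean lay between KO2 and WT in 29 of the 37 members, as the medians of these same members did, against 21.9% of all genes tested. Against WT, 25 members were still called lower, and 0 higher, where 5.51% and 7.2% of all genes were, with a median of -1.85.

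WT cells with eGFP, grown in 10% serum, had lower levels of the mitotic genes than untransduced WT in 2% serum. Serum, transduction and selection differed together between these groups, so they cannot be told apart. Of the 37 members, 15 were called lower and 0 higher, where 6.24% of all genes were called lower and 6.49% higher, with a median log2 change of -1.33. Both eGFP libraries were below both WT libraries in 30 members, where 30.4% of all genes were. CCNB1 had 666 and 923 (-1.87, SE 0.17), CDK1 758 and 698 (-1.41), KIF23 1107 and 1225 (-1.43), and UBE2C 66.8 and 69.2 (-2.22, SE 0.40). No library of these 4 genes overlapped WT.

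A few members were near or above their WT level in these cells. CENPE had 641 and 573 in the eGFP line, above the 325 and 288 of WT, with a log2 change of 0.98 just under the limit (adjusted p = 0.0048 in limma). HMMR had 302 and 300.1 (-0.07, SE 0.48) and ECT2 3678 and 3255 (-0.16, SE 0.10). TOP2A had 90.4 and 69.9, within the range of the 2 WT libraries (log2 change 0.73). In all 4 transduced lines the group mean was below WT in 33 of the 37 members, against 35.8% of all genes, and the 4 exceptions were CENPE, PLK1, TOP2A and TPX2.

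Against the eGFP line, in the same serum, 13 members were called higher and TOP2A lower in Rescue1, where 6.03% and 6.79% of all genes were called higher and lower. In Rescue2 11 were called higher and TOP2A lower, where 5.46% and 5.68% were. Those called higher in each clone, against the same eGFP libraries, include CCNB1 (1.25 and 1.18), FOXM1 (1.56 and 1.44), AURKA (1.22 and 1.12) and BUB1B (1.10 and 1.27). TOP2A had 8.77 and 20.8 in Rescue1 and 11.8 and 9.51 in Rescue2, below the 54.9 to 124 of the transduced WT lines, and its log2 changes against eGFP were -2.46 and -2.79 (SE 0.68). Both Rescue1 libraries were below both eGFP libraries in 2 members, where 30.2% of all genes were, and above them in 24, where 30.1% were. Without eGFP replicate 1, 7 members were called in Rescue1 and 6 in Rescue2, and without Rescue1 replicate 1, 8 were called in Rescue1. These comparisons set clones of SETD2 KO origin with added SETD2 against bulk WT cells.

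**Figure D4:**
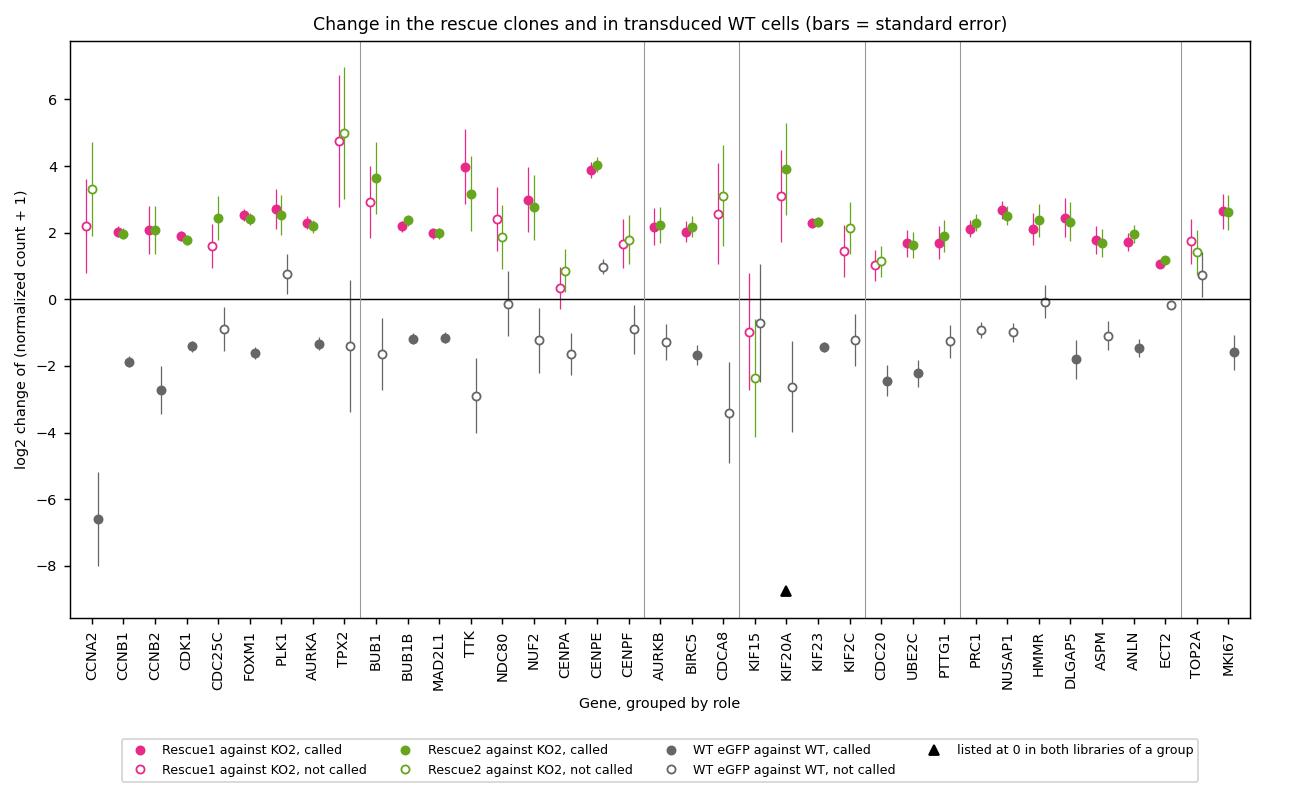
Points give the log2 change of each member in Rescue1 and Rescue2 against KO2 and in WT with eGFP against WT, with bars for the standard error, filled where called and open where not, and black triangles under genes listed at 0 in both libraries of a group. The rescue clones lie above 0 for all members but KIF15, while the eGFP line lies below 0 for all but CENPE, PLK1 and TOP2A.

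Lines with SOX2, OCT2 or PRRX1, transcription factors expressed from the same kind of vector, did not differ detectably from the eGFP line in these genes. Of the 37 members, 0 were called in limma in each of the 3 lines, where 0.00686% of all genes were called lower in each and 0.0137%, 0.0274% and 0.0343% higher. At an unadjusted p under 0.05, for which no share of all genes is given, 0 were lower and 1 was higher by more than 1 in each line. That gene was CCNA2 with SOX2 and PRRX1 and CCNB2 with OCT2, and CCNA2 was listed at 0 in 1 of the eGFP libraries. CCNB1 had 688 and 759.6 with SOX2, 1008 and 925 with OCT2, and 677 and 738 with PRRX1, around the 666 and 923 with eGFP.

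How alike the members were was described over the 11 group means, by Pearson's r with the median of the other tested members, which share the same libraries. The highest were KIF23 (r = 0.993), CDK1 (0.987) and BUB1B (0.985). The lowest were SPC25 (0.24), KIF15 (0.417), TOP2A (0.633), TPX2 (0.636) and KIF20A (0.683). The untested SPC25 and KIF4A stayed at or under 9.74 and 9.36 normalized counts in every library. SPC25, KIF15, TPX2 and KIF20A were listed at 0 in 17, 6, 5 and 4 of the 22 libraries and KIF23, CDK1 and BUB1B in 0.

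Other genes of the division cycle, from lists of general knowledge, give the setting. Of 45 other mitosis genes tested, 23 were called lower after TGF-β, 35 in KO1 and 34 in KO2. Of all genes, 4.26%, 13.1% and 7.29% were. The medians of these mitosis genes were -1.80, -3.06 and -2.36. In Rescue1 and Rescue2, 30 and 28 of them were called higher than in KO2, where 6.88% and 6.86% of all genes were. CDCA3, which targets WEE1 for degradation, went from 1135 and 1666 in WT to 258 and 231 after TGF-β. ESPL1, the separase that cuts cohesin, had a log2 change of -3.41 in KO2.

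Genes of DNA replication followed with smaller medians (-1.08, -1.88 and -1.62). Of 21 tested, 8 were called lower after TGF-β, 14 in KO1 and 12 in KO2, where 4.26%, 13.1% and 7.29% of all genes were. In Rescue1 and Rescue2, 10 and 14 were called higher than in KO2, where 6.88% and 6.86% of all genes were. MCM4, a subunit of the replicative helicase, had a log2 change of -1.92 after TGF-β, and MCM10, which helps the helicase to fire, one of -3.64 in KO1. For CCNE2 (cyclin E2) it was -3.77 in KO2.

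The 12 tested genes of the APC/C core and its activator CDH1, whose products act in mitosis without cycling at the RNA level, were called 0 times in limma after TGF-β, in KO1 and in KO2, and 0 of them passed an unadjusted p under 0.05 with a change over 1. Their medians were 0.16, -0.06 and -0.14. Among them ANAPC13, chosen after its values were seen, had log2 changes of 0.95 in KO1 and 0.77 in KO2, just under the limit. Of 16 genes of the DREAM complex, the RB family, the MuvB core with B-MYB, and NF-Y, 1, 4 and 3 were called lower in the same 3 comparisons. Of all genes, 4.26%, 13.1% and 7.29% were. Those called included RBL1, which encodes p107 (-1.05, -2.28 and -1.67), and LIN9 in KO1 and KO2 (-1.99 and -1.52). MYBL2, the B-MYB factor of the activating complex, had 65.0 and 45.2 in WT and was listed at 0 in all 4 KO libraries.

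**Figure D5:**
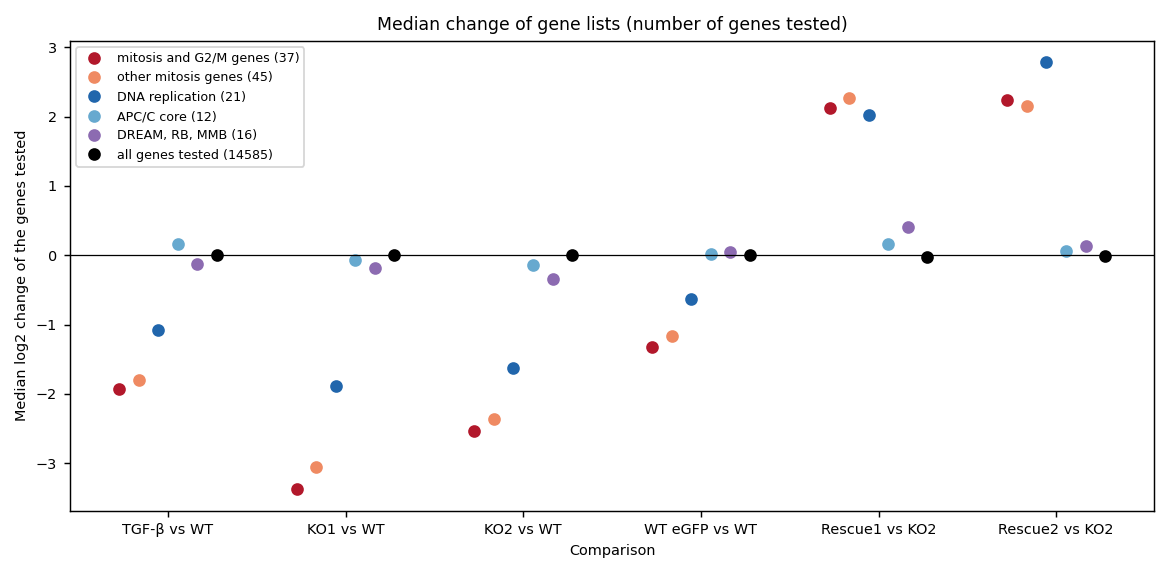
Points give the median log2 change of the genes tested in each list (number in parentheses) for 6 comparisons. The mitosis and G2/M genes lie next to the other mitosis genes, from -3.38 in KO1 to 2.23 in Rescue2, and the APC/C core and all genes tested stay near 0.

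Genes that brake or drive G1 had no shared direction. Of 6 CDK inhibitors tested, 1 was called higher and 1 lower after TGF-β, 2 higher and 0 lower in KO1, and 2 higher and 1 lower in KO2, and of 6 G1 cyclins and kinases with MYC, 1 was higher and 0 lower, 1 and 2, and 0 and 3. CDKN2B (p15), an inhibitor of CDK4 and CDK6, rose after TGF-β from 172 and 199.6 to 714 and 985 (2.17) and was also called higher in KO1 (1.34) and KO2 (1.04), and in the rescue clones it was lower than in KO2 (-2.00 and -2.44). CDKN1C (p57) was called lower after TGF-β (-2.00) and higher in KO1 (2.02), KO2 (2.14) and the eGFP line (3.51). MYC had 1058 and 1149 in WT, 1162 and 1251 after TGF-β, 165 and 206 for KO1, 92.6 and 92.1 for KO2, and 2321 and 2905 in the eGFP line. MYC was called lower in the KO clones (-2.58 and -3.56), and after TGF-β it differed from WT by 0.13 without passing the test.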

How the data were processed

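RNA was measured in 22 libraries of RPTEC with stranded, poly(A)-selected sequencing. The authors quantified transcripts with Salmon (1.9.0 in the submitters' processing notes) against cDNA sequences of Ensembl release 94 (GRCh38) and ran DESeq2 1.26.0. The deposited log2 values (11.32 to 21.28) have the form of a variance-stabilizing transformation of normalized counts, which the study's text does not name, and all libraries share the lowest value. They were inverted to normalized counts, so a value depends on that reading of the scale and read depth is known only as the total after the authors' normalization (11674491 to 16758645).

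Symbols were taken from GENCODE 44 for 33878 of 36859 genes. The 14585 genes that reached 10 normalized counts in 2 or more libraries were tested on log2(normalized count + 1), which understates the change of low genes, with limma 3.58.1 in R 4.3.3 (moderated test with trend, two-sided, all 22 libraries in 1 fit with a mean per group). Calls needed an adjusted p under 0.05 (Benjamini-Hochberg) and an absolute log2 change over 1. Tables and figures were made with Python 3.11.15, pandas 2.3.3, numpy 2.4.6, the R package data.table, version 1.17.8, and matplotlib 3.10.9. On simulated data for TGF-β against WT over 14585 genes, 121 of 200 genes raised by 2 on the log2 scale were recovered (60.5%) and 3 unchanged genes were called. No lowered genes were simulated, so the recovery of decreases was not measured.

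The members and the other gene and marker lists were chosen with earlier results of these data known. All members could be named. From each other list at most 4 genes per comparison were named, those called with the largest change or at the floor of 3 normalized counts in a group, except ANAPC13, which was chosen after its values were seen. Epithelial, endothelial and leukocyte markers were named to describe their levels and not by this rule. Comparisons of the rescue clones with WT were added after the values were seen. Promoters came from RefSeq on GRCh38.p14 by gene symbol. Alternatives were pseudocounts of 0.5 and 5, other filters, scaling to the same total, quantile normalization, a replicate block, a fit of the compared libraries alone, leaving out single libraries and, added later, members with a mean of at least 100 normalized counts.

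Replicate numbers are shared by the groups in the labels. Over 55 pairs of groups, the correlation of deviations ranged from -0.62 to 0.53, and 7 pairs were over 0.1, so the numbers were not treated as pairing the libraries.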

Additional observations from a re-analysis of the deposited data

Results flagged for a closer look

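Effects of 12 members in the KO clones against WT differed between the clones in a test of the difference itself (KO1 minus KO2 in limma, adjusted over all 14585 genes). All were lower in KO1, where 4.49% of all genes were called lower. With a spread from the libraries of the clones alone, only CDC20 was called. On the log2 scale the differences were -6.80 for CCNA2, -6.43 for CDC20, -4.90 for CENPA, -4.39 for BUB1 and -2.13 for TOP2A, which were all listed at 0 in both KO1 libraries, so these 5 are fitted values that depend on the pseudocount and are neither measured folds nor bounds. They were -2.20 for MKI67, -1.69 for CENPE, -1.52 for ASPM, -1.44 for UBE2C, -1.41 for BUB1B, -1.20 for NUSAP1 and -1.12 for CDK1. KO1 and KO2 are 1 clone each, so a difference between clones and a difference between alleles cannot be told apart.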

How the results depend on the processing

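No call of a single member changed direction under any alternative, and of 241 calls 51 were lost when the spread came only from the libraries compared, while of 980 calls with single libraries left out 211 were lost. With the libraries compared alone, 1 member was called in KO1 against KO2 and 13 in KO1 against TGF-β. Scaling to the same total moved the median of all genes by -0.20 after TGF-β, -0.40 in KO1 and -0.21 in KO2 and by 0.24 and 0.28 in Rescue1 and Rescue2 against KO2, and 5 members were then called in KO2_Rescue against KO2. In Rescue2 against WT, 1 member was called with a mean of at least 50 normalized counts, with no filter, among members with a mean of at least 100, in the libraries compared alone, with a pseudocount of 0.5, with the same total and in the replicate block. The replicate block gave 25 members after TGF-β, 32 in KO1 and 30 in KO2, and in other comparisons moved no count by over 1.5 times, except Rescue2 against WT. Its numbers are shared names and not a pairing. Without single libraries, the counts ranged from 17 to 22 after TGF-β, 28 to 33 in KO1, 21 to 26 in KO2, 9 to 11 in KO1 against KO2, 17 to 23 in KO1 and 2 to 5 in KO2 against TGF-β, 3 to 6 in KO2_Rescue against KO2 and 18 to 21 against WT. They ranged from 19 to 21 in both rescue clones against KO2, 1 to 3 and 1 to 2 against WT, and 7 to 11 and 6 to 14 against eGFP. They were 12 to 17 in eGFP against WT, 0 to 1 with SOX2 and 0 with OCT2 and PRRX1 against eGFP. Rescue1 against WT turned from 1 higher to 1 higher and 2 lower (3 in all) without Rescue1 replicate 2 and without WT replicate 1, and 2 were higher without WT replicate 2. Without eGFP replicate 1, 7 members were called in Rescue1, 6 in Rescue2 and 1 with SOX2 against eGFP, and without Rescue1 replicate 1, 8 in Rescue1. Without TGF-β replicate 1, 5 were called in KO2 against TGF-β, and without KO2 replicate 1, 6 in KO2_Rescue against KO2. Genes with widely differing replicates, such as CCNA2, TPX2 and KIF15, limited what 2 libraries a group could show. Of these, TPX2 and KIF15 had low means over the 22 libraries (37.6 and 30.2 normalized counts), whereas CCNA2 had a mean of 331.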
